A study of Mus musculus with 6 samples.

Results

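The genes described here are 10 inflammatory mediators, chosen by name: the cytokines *Tnf*, *Il1a*, *Il1b*, *Il6*, *Il10* and *Il18*, the interleukin-1 (IL-1) receptor antagonist *Il1rn*, the IL-1 receptor chains *Il1r1* and *Il1rap*, and *Ptgs2*. All 10 were found among the 57180 genes of the deposited table. They were compared between wildtype (WT) and lincRNA-EPS knockout (KO) osteoclast precursors (OCPs), which are bone marrow-derived macrophages at an early stage of becoming osteoclasts. The WT mice were C57BL/6, and the labels give neither the age of the mice nor the form of the deleted allele. Cells of both genotypes were kept with M-CSF, the macrophage growth factor, at 40 ng/ml for 24 h. RANKL, the cytokine that drives osteoclast formation, was then added at 40 ng/ml for 48 h. No inflammatory stimulus such as LPS is named in the labels for these cells, so the values are those of primed but otherwise unstimulated cultures. RNA was sequenced from 3 WT and 3 KO cultures, described by the submitters as biologically independent.

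IL-1 alpha and IL-1 beta are inflammatory cytokines that bind the receptor IL1R1, which then recruits the accessory chain IL1RAP and signals through MYD88 and NF-κB. IL-1 beta is made as a precursor and has to be cut, usually by caspase-1 in an inflammasome, before it is active, so the mRNA alone does not give the active cytokine. The receptor antagonist encoded by *Il1rn* occupies IL1R1 without recruiting the accessory chain, and the decoy receptor IL1R2 binds IL-1 without signalling. In bone, IL-1 and TNF promote osteoclast formation and activity together with RANKL. LincRNA-EPS is a long intergenic noncoding RNA of macrophages known as a repressor of immune response genes, which is the reason to look at these cytokines in cells that lack it.

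The promoters of the 3 genes of the set with the lowest p-values between the genotypes are shown first, so that their start regions can be read beside the values. Each window runs from 250 bases before to 50 bases after a RefSeq transcript start, 5′ to 3′ on the strand of the gene, in build GRCm38.p6. Capitals mark a match to 1 of 5 motifs searched on both strands. The TATA box was searched as TATAAA and the AP-1 site as TGANTCA. For PU.1 the letters were GAGGAA and for C/EBP factors TTGCNNAA, and the NF-κB consensus was the last. No marked match overlaps another in these windows.
Il1b, chr2:129371090-129371389, minus strand: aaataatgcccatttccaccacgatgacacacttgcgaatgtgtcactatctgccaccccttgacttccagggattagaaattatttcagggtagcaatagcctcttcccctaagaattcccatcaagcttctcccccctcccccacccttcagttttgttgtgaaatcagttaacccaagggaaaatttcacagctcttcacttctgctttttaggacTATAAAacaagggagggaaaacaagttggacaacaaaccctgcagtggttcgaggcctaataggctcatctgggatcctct
Il1rn, first of 3 windows, chr2:24336610-24336909, plus strand: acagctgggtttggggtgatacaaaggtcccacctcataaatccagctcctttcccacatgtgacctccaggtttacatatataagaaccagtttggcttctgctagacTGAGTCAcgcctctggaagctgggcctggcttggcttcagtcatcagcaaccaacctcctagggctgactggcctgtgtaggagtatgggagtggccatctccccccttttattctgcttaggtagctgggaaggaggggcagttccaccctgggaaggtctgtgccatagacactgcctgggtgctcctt
Il1r1, first of 2 windows, chr1:40224830-40225129, plus strand: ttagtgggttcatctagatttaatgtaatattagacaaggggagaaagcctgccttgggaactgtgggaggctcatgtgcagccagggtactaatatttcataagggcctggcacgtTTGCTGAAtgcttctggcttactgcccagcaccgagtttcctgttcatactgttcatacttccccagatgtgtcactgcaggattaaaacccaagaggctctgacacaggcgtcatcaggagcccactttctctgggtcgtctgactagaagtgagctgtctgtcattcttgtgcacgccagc
The *Il1b* window held TATAAA beginning 31 bases upstream of the start. In the *Il1rn* window TGAGTCA, an AP-1 type match that reads as a match on either strand, began 141 bases upstream. The *Il1r1* window held TTGCTGAA, a C/EBP type match, 133 bases upstream. Over 12 windows of the 9 member genes with an entry, a TATA match was found for 5 genes, and matches of the AP-1, PU.1 and C/EBP type for 3 genes each. An NF-κB match was found for 2 genes, *Il6* and the second window of *Il1r1*. Among all 32851 windows of the same length, 13.6% held the TATA letters, 7.81% the AP-1, 28.3% the PU.1, 10.8% the C/EBP and 8.46% the NF-κB motif. These are matches of letters and were not tested for binding.

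Library totals ran from 17757351 to 19998611 estimated counts, and all pairs of libraries of a genotype differed by more than sampling noise. Levels are given as counts and as CPM (counts scaled to a common library total by the TMM method). The floor, at or under which a value was not taken as measured, is 3 counts. Scaled by the library total alone, without the TMM factors, this floor equals 0.150 to 0.169 CPM. LincRNA-EPS, listed as *Ttc39aos1* (chromosome 4, 109403794 to 109406155, minus strand, GRCm38), had 20, 37 and 41 counts in the WT libraries and 0 in every KO library. The macrophage markers, 9 of 9 tested, summed to 16712 to 17852 CPM in WT and 15047 to 17880 CPM in KO OCPs. Most of this sum came from *Lyz2*, with means of 13303 CPM in WT and 12882 CPM in KO. In KO, 7 of the 9 genes lay wholly below WT and 0 wholly above, beside 18.8% and 16.9% of all genes tested. The 10 osteoclast markers summed to 5024 to 5501 CPM in WT and 6542 to 7081 CPM in KO, so the cells carried both programmes named by their labels. Of the other lists, the summed markers of erythroid cells stayed at or below 0.735 CPM in every library, *Bglap* of osteoblasts was at 0 throughout, and *Cd3e*, *Cd3d* and *Ncr1* of T and NK cells did not pass the floor of 3 counts in any library. Other genes of these lists were expressed, such as *Runx2*, *Col1a2* and *Col1a1* of the stromal list and *Il7r*, *Cd4* and *Nkg7* of the T and NK list. The stromal list summed to 24.2 to 33.4 CPM in WT and 21.8 to 30.4 CPM in KO, and the T and NK list to 131.5 to 138 CPM in WT and 128 to 166 CPM in KO. Summed dendritic cell markers, at 35.3 to 39.0 CPM in WT and 45.3 to 48.7 CPM in KO, were higher in every KO library. The summed mast cell and basophil markers overlapped, at 16.6 to 17.5 CPM in WT and 16.5 to 19.2 CPM in KO. Most of that sum came from *Kit*, which had a log2 difference of -0.27 (unadjusted p = 0.0925 in edgeR) and means of 14.2 CPM in WT and 11.8 CPM in KO. The 3 other tested genes of that list, *Cpa3* (log2 difference 1.20), *Mcpt8* (1.41) and *Prss34* (1.08), were higher in every KO library than in any WT library, each at an unadjusted p under 0.05 in edgeR. *Mcpt8*, with 7, 5 and 10 counts in WT, and *Cpa3*, with 16, 6 and 13, passed the filter on low counts through their KO libraries. The part of such cells in the values of *Il1b*, *Il1rn* and *Il1r1* was not tested. The summed markers of B cells, megakaryocytes, stromal cells, endothelial cells and T and NK cells overlapped between the genotypes. In RNA from whole cultures, fewer cells of a type and less RNA per cell cannot be told apart.

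Levels of the IL-1 agonist gene *Il1b*, the antagonist gene *Il1rn* and the receptor gene *Il1r1* were above all WT libraries in every KO library, but none of them passed the main test. On average *Il1b* was 1.67-fold, *Il1rn* 1.47-fold and *Il1r1* 1.95-fold higher, while *Il1a*, *Il1rap*, *Il18*, *Tnf* and *Ptgs2* overlapped between the genotypes. Over all genes tested, 16.9% lay wholly above WT in the KO libraries and 18.8% wholly below. None of the 10 genes passed the limits of the edgeR quasi-likelihood test, which were a fold change of more than 1.3 with an adjusted p below 0.01. At these limits 1 of the 13428 genes tested was called, or 0.00745%. LincRNA-EPS itself was not called, with an adjusted p of 0.120 in edgeR and none in DESeq2. *Il1rn* alone passed the same limits in DESeq2, which called 126 of the 10456 genes it gave an adjusted p-value, or 1.21%. With a correction for transcript GC content in DESeq2, *Il1rn* was no longer called, at a log2 difference of 0.30 and an adjusted p of 0.0103, while 330 genes were called in all.

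**Figure D1:**
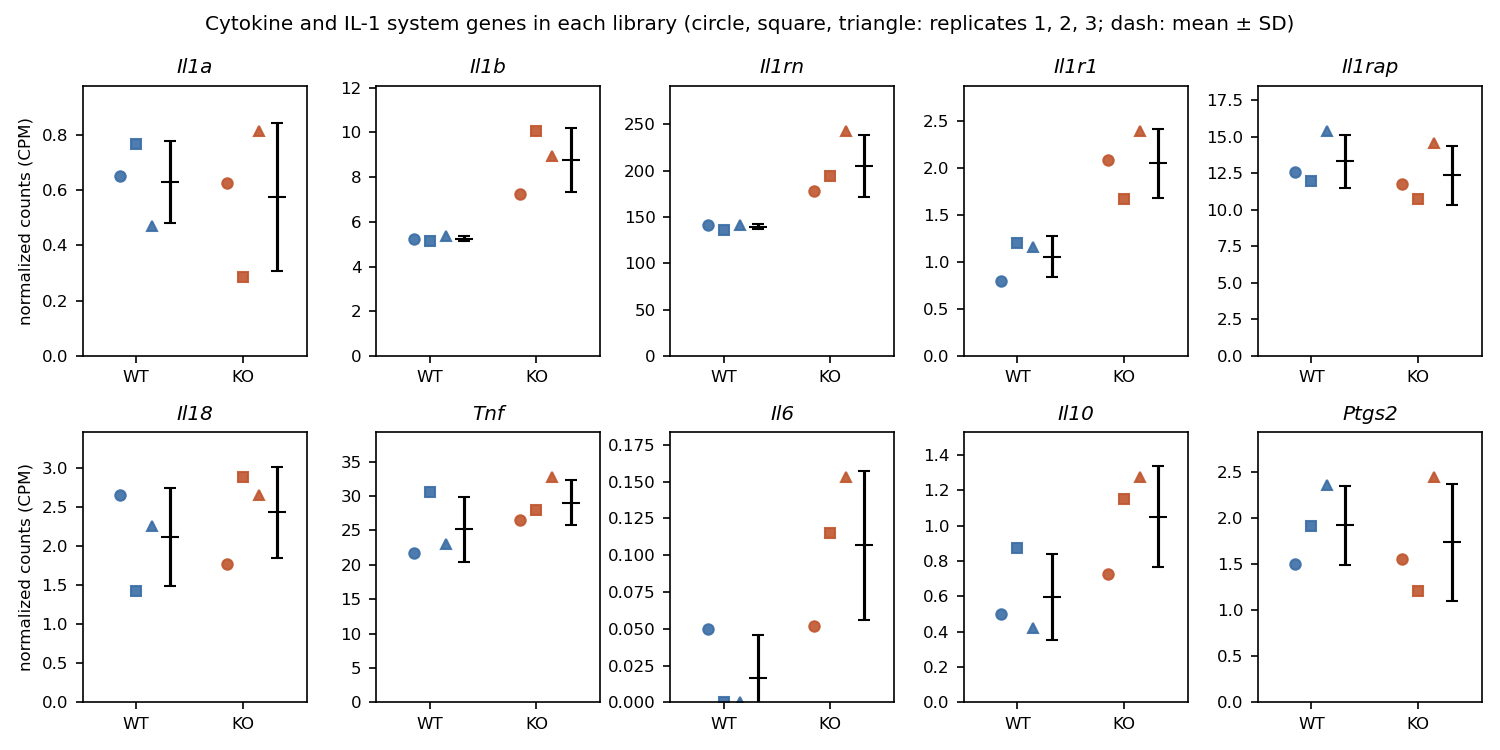
Normalized counts (CPM, y axis of each panel, starting at 0) of the 10 genes in each of the 3 WT (blue) and 3 KO (orange) libraries, with the replicate number as symbol and the mean ± SD in black. *Il1b*, *Il1rn* and *Il1r1* separate the genotypes with all KO points above all WT points, and *Il6* lies at or below 0.153 CPM in every library, with its lower WT error bar ending at the axis.

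The level of *Il1b* (ENSMUSG00000027398, chromosome 2, 129364570 to 129371139, minus strand, GRCm38) was nearly identical among the WT cultures and higher in each KO culture. The WT libraries had 104, 94 and 102 counts, or 5.22, 5.14 and 5.35 CPM, and the KO libraries 139, 175 and 176 counts, or 7.24, 10.1 and 8.96 CPM. The means were 5.24 ± 0.106 CPM for WT OCPs and 8.75 ± 1.42 CPM for KO OCPs (SD, n = 3 each). The lowest KO library was above the highest WT library, and the KO cultures spread more widely than the WT cultures. On the log2 scale the difference was 0.74 (SE 0.16, 95% interval 0.37 to 1.10) in edgeR, with an unadjusted p of 0.00139 and an adjusted p of 0.147, the 118th lowest p of all genes tested. DESeq2 gave an adjusted p of 0.0215. *Il1a* (ENSMUSG00000027399), the other IL-1 agonist, lies 54598 bases from *Il1b* on the same chromosome and strand and did not share this pattern. Its counts were 13, 14 and 9 in WT and 12, 5 and 16 in KO, and the KO libraries held both the lowest and the highest of the 6 values. The log2 difference of *Il1a* was -0.10 (95% interval -1.08 to 0.87, adjusted p = 0.888 in edgeR), so at this depth neither a halving nor a rise of the size seen for *Il1b* could be told from no change. The difference between the responses of the 2 genes was not tested. *Il1a* and *Il1b* share 222 and 25 exonic bases with antisense genes (*Gm14023* and *Il1bos*), and the strand setting of the counting is not given in the sources used here.

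*Il1rn* (ENSMUSG00000026981, chromosome 2, 24336853 to 24351494, plus strand) was by far the most abundant of the 10 genes. Its counts were 2811, 2488 and 2691 in WT and 3410, 3380 and 4765 in KO OCPs. In CPM the WT libraries lay at 141, 136 and 141 and the KO libraries at 178, 194 and 243. All KO libraries were above all WT libraries, with KO replicate 3 the highest. The means were 139 ± 2.84 CPM for WT OCPs and 205 ± 33.8 CPM for KO OCPs (SD, n = 3 each). The log2 difference was 0.55 (SE 0.12, 95% interval 0.28 to 0.83), with an unadjusted p of 0.00146 and an adjusted p of 0.147 in edgeR, and an adjusted p of 0.00502 in DESeq2. *Il1rn* supplied 75.5%, 71.6% and 73.7% of the summed counts of the 10 genes in the WT libraries. In the KO libraries its share was 77.3%, 77.6% and 78.6%, above every WT library.

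The receptor chain *Il1r1* (ENSMUSG00000026072, chromosome 1, 40225080 to 40317257, plus strand) was scarce in both genotypes. It had 16, 22 and 22 counts in WT and 40, 29 and 47 counts in KO OCPs. The KO values of 2.08, 1.67 and 2.39 CPM all exceeded the WT values of 0.802, 1.20 and 1.15 CPM. Means were 1.05 ± 0.219 CPM for WT OCPs and 2.05 ± 0.364 CPM for KO OCPs (SD, n = 3 each). The log2 difference was 0.97 (SE 0.26, 95% interval 0.37 to 1.57), with an unadjusted p of 0.00544 and an adjusted p of 0.147 in edgeR. DESeq2 left its adjusted p undefined, as it did for the other low genes of the set, and gave an unadjusted p of 0.0177 over 6 libraries from the same model across all genes. The accessory chain *Il1rap* (ENSMUSG00000022514), which IL1R1 needs to signal, had 251, 219 and 293 counts in WT and 226, 186 and 286 in KO. Those libraries overlapped, and the log2 difference was -0.11 (95% interval -0.47 to 0.25, adjusted p = 0.679 in edgeR). *Il1rap* shares 552 exonic bases with the antisense gene *Gm20319*.

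The balance of the system was read from ratios within a library, which do not depend on the scaling of libraries. Per length of the longest annotated transcript, *Il1rn* was 14.1 ± 0.186 times the level of *Il1b* in WT and 12.6 ± 2.10 times in KO OCPs (SD, n = 3 each). In raw counts there were 27.0, 26.5 and 26.4 *Il1rn* counts for each *Il1b* count in WT and 24.5, 19.3 and 27.1 in KO, so the antagonist to agonist ratio overlapped between the genotypes. The ratios are not corrected for GC content, which was 41.6% for *Il1rn* and 46.3% for *Il1b*. With that correction in edgeR their log2 differences were 0.30 and 0.64, beside 0.55 and 0.74 without it. A corrected ratio was not tested. The ratio of *Il1rap* to *Il1r1* counts did not overlap, and it restates the values above, where libraries overlapped for *Il1rap* but not for *Il1r1*. It was 15.7, 9.95 and 13.3 in WT and 5.65, 6.41 and 6.09 in KO, and per length the means were 16.7 ± 3.71 and 7.79 ± 0.493 (SD, n = 3 each). An exact permutation test of 3 against 3 libraries cannot give a two-sided p below 0.1, so none is given for single genes or ratios.

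**Figure D2:**
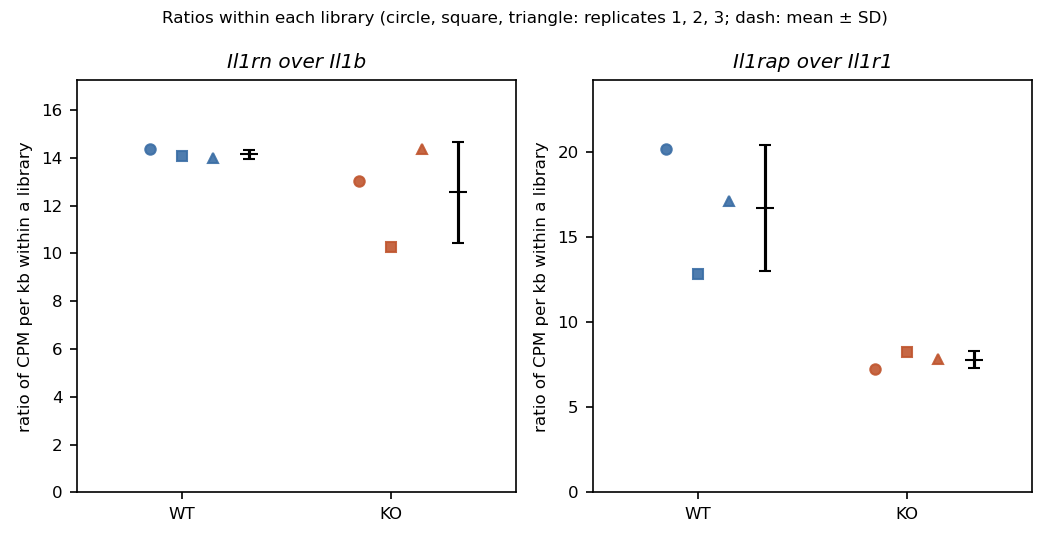
Ratios of CPM per kilobase within each library (y axes, starting at 0) for *Il1rn* over *Il1b* (left) and *Il1rap* over *Il1r1* (right), with 3 WT (blue) and 3 KO (orange) libraries and the mean ± SD in black. No correction for GC content was applied. The *Il1rn* over *Il1b* ratio overlaps between genotypes, whereas *Il1rap* over *Il1r1* averages 16.7 in WT and 7.79 in KO without overlap.

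Of the remaining cytokines, *Tnf*, *Il18* and *Il10* overlapped between the genotypes, and *Il6* was too low to be compared. *Tnf* (ENSMUSG00000024401, chromosome 17), a cytokine that acts with RANKL on osteoclast precursors, had 434, 559 and 439 counts in WT and 508, 487 and 642 in KO. Its means were 25.1 ± 4.77 CPM in WT and 29.0 ± 3.25 CPM in KO, and WT replicate 2 was above 2 of the KO libraries. The log2 difference of *Tnf* was 0.21 (95% interval -0.14 to 0.56, adjusted p = 0.389 in edgeR). It was 0.12 without WT replicate 1 or without KO replicate 3 and 0.37 (unadjusted p = 0.0252 in edgeR) without WT replicate 2. *Il18* (ENSMUSG00000039217), an IL-1 family cytokine also cut by caspase-1, had 53, 26 and 43 counts in WT and 34, 50 and 52 in KO. In CPM, WT replicate 1 was its second highest library, and the log2 difference was 0.19 (95% interval -0.46 to 0.84, adjusted p = 0.682 in edgeR).

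*Il10* (ENSMUSG00000016529), an anti-inflammatory cytokine of macrophages, had 10, 16 and 8 counts in WT and 14, 20 and 25 in KO. The groups overlapped only through WT replicate 2, at 0.876 CPM, and KO replicate 1, at 0.729 CPM. The log2 difference was 0.81 (95% interval -0.06 to 1.68) with an unadjusted p of 0.0636 and an adjusted p of 0.209 in edgeR, and the gene passed the filter on low counts through its KO libraries. *Il6* (ENSMUSG00000025746) had 1, 0 and 0 counts in WT and 1, 2 and 3 in KO. In CPM the KO libraries lay above the WT libraries, the closest pair being 1 count each at 0.0521 and 0.0501 CPM. Every library was at or under the floor of 3 counts, so *Il6* was not tested and no fold is given. *Ptgs2* (ENSMUSG00000032487), the inducible cyclooxygenase of prostaglandin synthesis, had 30, 35 and 45 counts in WT and 30, 21 and 48 in KO. KO libraries held both its lowest and its highest value, and the log2 difference was -0.13 (95% interval -0.83 to 0.56, adjusted p = 0.795 in edgeR).

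**Figure D3:**
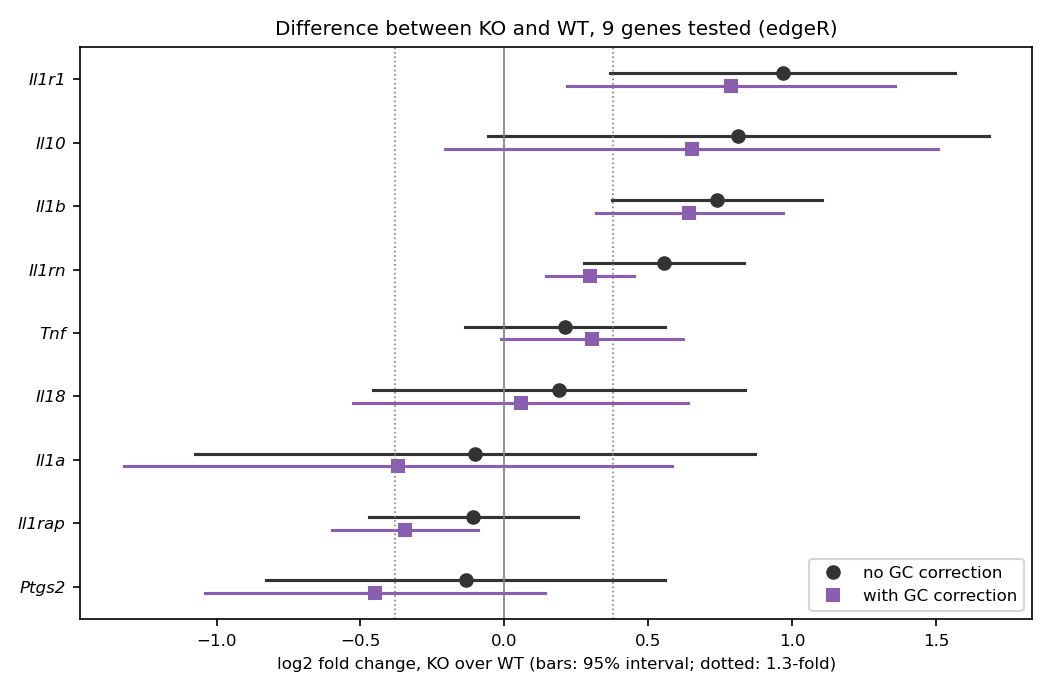
Log2 fold change of KO over WT (x axis) for the 9 genes tested, from edgeR without (black circles) and with (purple squares) a correction for transcript GC content, with 95% intervals as bars and the 1.3-fold limits dotted. The intervals of *Il1r1*, *Il1b* and *Il1rn* lie above 0 in both fits, and that of *Il1rap* lies below 0 only with the correction.

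Counted together, 9 of the 10 genes passed the filter on low counts. Of these 9, 6 were higher and 3 lower in KO, with a median log2 difference of 0.21, against a median of 0.0091 over all genes tested. Without *Il10*, which passed that filter through its KO libraries, 5 were higher and 3 lower with a median of 0.20. An unadjusted p under 0.05 in edgeR was reached by 3 of them, all higher in KO. Over all genes 26.2% reached that level, 1742 higher and 1773 lower in KO. The KO libraries lay wholly above the WT libraries for the same 3 genes and wholly below for none, where 16.9% and 18.8% of all genes did so. The share of the 9 genes at that level was thus close to that of all genes.

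The log2 fold changes of all genes tested correlated with transcript GC content (r = -0.51 across genes, which are not independent replicates), and 9 of the 10 genes had a GC content below the median of 49.2% of the genes tested. With the trend of each library against GC content removed, the log2 difference of *Il1rn* was 0.30 (adjusted p = 0.0628 in edgeR), a 1.23-fold difference below the limit of 1.3. *Il1b* stood at 0.64 (adjusted p = 0.0623) and *Il1r1* at 0.79 (adjusted p = 0.108). Of the genes that overlapped, *Il1rap* moved to -0.34 (unadjusted p = 0.0134, adjusted p = 0.112 in edgeR), *Il1a* to -0.37, *Ptgs2* to -0.45, *Il18* to 0.06 and *Tnf* to 0.30. Thus 4 of the 9 genes had an unadjusted p under 0.05 in this fit, where 25.9% of all genes did. Leaving out each library in turn kept the log2 difference between 0.63 and 0.86 for *Il1b*, 0.42 and 0.65 for *Il1rn*, and 0.80 and 1.09 for *Il1r1*, with highest unadjusted p-values of 0.00738, 0.00671 and 0.0282 in these edgeR fits.

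Neutrophils and monocytes, which also express *Il1b*, *Il1rn* and the decoy receptor gene *Il1r2*, can remain in bone marrow cultures, and their summed markers were higher in every KO library than in any WT library. The 12 neutrophil markers summed to 1363 to 1527 CPM in WT and 1834 to 2156 CPM in KO. Of 11 tested, 9 were higher and 2 lower, with 7 higher and 1 lower at an unadjusted p under 0.05 in edgeR. None of the neutrophil list was at 0 in all libraries, and the defining marker *Ly6g* had 5, 0 and 4 counts in WT and 2, 0 and 4 in KO. The 5 monocyte markers summed to 402 to 452 CPM in WT and 486 to 584 CPM in KO, with 4 higher and 1 lower. Of the macrophage markers all 9 had a lower value in KO, 5 at an unadjusted p under 0.05 in edgeR, and of the osteoclast markers 8 were higher and 2 lower. The part of these cell types in the values of *Il1b*, *Il1rn*, *Il1r1* and *Il1r2* was not tested.

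Levels of different genes were compared as CPM per kilobase of the longest annotated transcript. *Il1rn* came first, with 54.6 ± 1.11 for WT and 80.2 ± 13.2 for KO OCPs (SD, n = 3 each), although its longest transcript is annotated as a retained intron and a shorter one would raise this value. *Tnf* followed with 15.3 ± 2.91 and 17.7 ± 1.98, and then *Il1b* with 3.86 ± 0.0781 and 6.46 ± 1.05. The ranges of these 3 genes over the 6 libraries did not overlap. *Il1rap*, at 2.95 in WT and 2.73 in KO, and *Il18*, at 2.39 and 2.75, could not be ordered. The same held from each neighbour to the next for *Il10* at 0.457 and 0.802, *Ptgs2* at 0.433 and 0.390, *Il1a* at 0.319 and 0.292 and *Il1r1* at 0.181 and 0.352. *Il6* was last, below all of them. Per length, the antagonist thus exceeded each other gene of the set in every library. The genes whose log2 CPM followed *Il1b* most closely over the 6 libraries, out of all genes tested, were *Gmds* (Pearson r = 0.997), *Gm37204* (r = 0.996) and *Atp5f1b* (r = 0.995), and 104 genes had an r above 0.95.

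The other genes of these pathways were read from 9 lists with 121 further genes, of which 105 were tested. Among them 41 were higher and 64 lower in KO, with a median log2 difference of -0.09. At an unadjusted p under 0.05 in edgeR 14 (13.3%) were higher and 27 (25.7%) lower, together 39.0%, beside the 26.2% of all genes, which were split nearly evenly between the directions. The KO libraries lay wholly above WT for 20 (19.0%) and wholly below for 37 (35.2%), beside 16.9% and 18.8% of all genes. None was called by edgeR at the limits used, the lowest adjusted p being 0.136, and DESeq2 called 1, *Tnfrsf1b*, of the 95 to which it gave an adjusted p-value (1.05%, beside 1.21% of all genes).

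**Figure D4:**
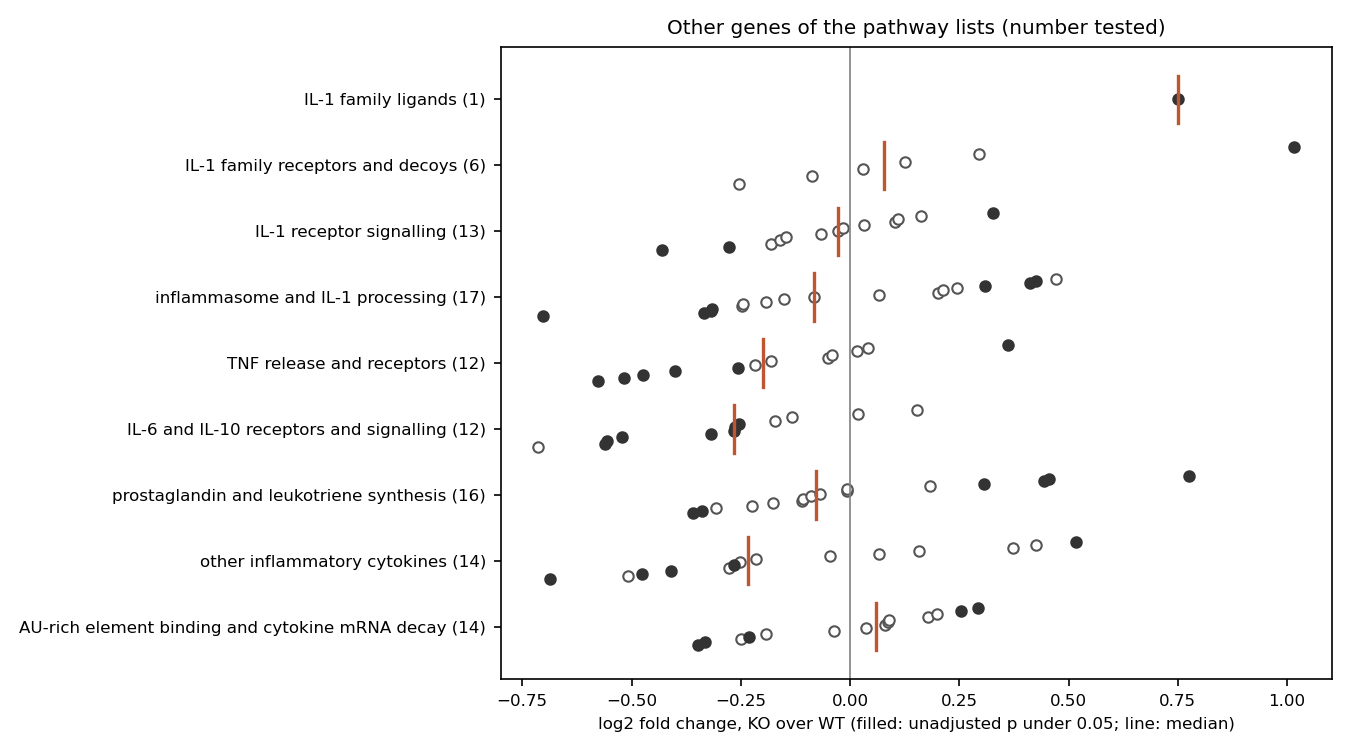
Log2 fold change of KO over WT (x axis) for each tested gene of the 9 pathway lists (rows, with the number tested), filled where the unadjusted edgeR p was under 0.05, with the median of each list as an orange line. *Il1r2* is the point farthest to the right at 1.02, and 10 of the 12 genes of the IL-6 and IL-10 list lie left of 0.

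Beside the members, only *Il36g* of the IL-1 family ligands was expressed highly enough to be tested. It encodes an agonist of the related IL-36 receptor and had 98, 76 and 91 counts in WT and 121, 122 and 196 in KO, a log2 difference of 0.75 (adjusted p = 0.147 in edgeR, 0.0433 in DESeq2). Of 6 further receptors and decoys tested, 4 were higher and 2 lower, or 3 each with the GC correction. The decoy receptor gene *Il1r2* (ENSMUSG00000026073), which lies 99849 bases from *Il1r1* on chromosome 1, had the lowest p of the 105 genes in edgeR, whereas in DESeq2 and in edgeR with the GC correction *Tnfrsf1b* had a lower one. Its counts were 34, 34 and 36 in WT and 63, 66 and 78 in KO, and its levels 1.82 ± 0.0993 CPM for WT and 3.68 ± 0.359 CPM for KO OCPs (SD, n = 3 each). Groups did not overlap, and the log2 difference was 1.02 (SE 0.19, 95% interval 0.59 to 1.44), with an unadjusted p of 0.000427 and an adjusted p of 0.136 in edgeR. It was 1.01 with the GC correction. The others nearest to a difference were *Il18rap*, the accessory chain of the IL-18 receptor, at 0.30 and *Il1rl2*, the IL-36 receptor, at -0.25, both above an unadjusted p of 0.05. These were 0.16 and -0.34 with the GC correction, where *Il1rl2* had an unadjusted p of 0.0275 and an adjusted p of 0.145 in edgeR.

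Downstream of the receptor, 5 of 13 genes of IL-1 signalling were higher and 8 lower, with a median log2 difference of -0.03, and with the GC correction 3 were higher and 10 lower. Only 1 was higher and 2 lower at an unadjusted p under 0.05 in edgeR: *Tab3* at 0.33, and *Tab1* at -0.43, both adaptors of the kinase TAK1, and *Irak3*, a brake on IL-1 and Toll-like receptor signalling, at -0.28. With the GC correction *Tab3* stood at 0.09 and *Tab1* at -0.14. Of 17 genes of the inflammasome and IL-1 processing, 8 were higher and 9 lower, 3 and 4 of them at that level. The lowest p-values belonged to 3 genes that were lower in KO: the sensor *Nlrp1b* at -0.70, the pyrin gene *Mefv* at -0.34 and the ATP-gated channel *P2rx7*, which triggers the NLRP3 inflammasome, at -0.31. *Casp1*, which encodes the protease that cuts IL-1 beta, had a log2 difference of 0.47 with overlapping libraries (adjusted p = 0.220 in edgeR), and it is named here as the highest value of its list. It was 0.19 with the GC correction and 0.17 without KO replicate 3.

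Among 12 genes of TNF release and its receptors 3 were higher and 9 lower, with 1 and 5 at an unadjusted p under 0.05 in edgeR and a median of -0.20. *Tnfrsf1b*, which encodes TNF receptor 2, had 7185, 7613 and 6765 counts in WT and 5339, 4539 and 4309 in KO. Its log2 difference was -0.58 (SE 0.12), with an adjusted p of 0.143 in edgeR and of 0.00160 in DESeq2, where it was called. *Rhbdf2* and *Frmd8*, partners of the protease ADAM17 that releases TNF from the cell surface, stood at -0.52 and -0.47, and at -0.21 and -0.27 with the GC correction. The list of IL-6 and IL-10 receptors and signalling had 2 of 12 genes higher and 10 lower, with a median of -0.27. At an unadjusted p under 0.05 in edgeR 7 of these were lower and 0 higher, and the KO libraries lay wholly below WT for 9 of the 12. Over all genes tested, 26.2% reached that p in either direction and 18.8% lay wholly below. *Socs3*, a feedback inhibitor of cytokine receptors, was at -0.56, the kinase gene *Tyk2* at -0.52 and the IL-10 receptor gene *Il10ra* at -0.32. With the GC correction these were -0.24, -0.28 and -0.20, and 11 of the 12 genes were lower.

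Of 16 genes of prostaglandin and leukotriene synthesis 5 were higher and 11 lower, 4 and 2 of them at that level. They include the prostaglandin E synthase gene *Ptges3* at 0.44, the prostaglandin D synthase gene *Hpgds* at 0.31 and the prostaglandin E receptor gene *Ptger2* at -0.34. With the GC correction these 3 stood at 0.24, 0.06 and -0.48. Without it the list ran from *Ptges*, another prostaglandin E synthase gene, at -0.36 to *Hpgd* at 0.78. Of 14 other inflammatory cytokines 5 were higher and 9 lower, 1 and 4 at an unadjusted p under 0.05 in edgeR. *Lif*, a cytokine of the IL-6 family, was at 0.52, and *Ebi3*, a subunit of IL-27 and IL-35, and *Tgfb1* were at -0.41 and -0.48, and with the GC correction the values were 0.62, -0.14 and -0.38. The median of that list was -0.23, and -0.02 with the GC correction, under which 7 genes were higher and 7 lower. Proteins that bind AU-rich elements and control the decay of cytokine mRNA were coded by 14 tested genes, 8 higher and 6 lower, 2 and 3 at that level, and 6 higher and 8 lower with the GC correction. *Hnrnpd* was at 0.25, *Khsrp* at -0.35 and *Mapkapk2*, a kinase that stabilizes *Tnf* and *Il6* mRNA, at -0.23, and with the GC correction they stood at 0.01, -0.09 and 0.05.

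The deposited table also lists pathway terms for each gene. Of the 10 genes, 9 carry the KEGG term for cytokine and cytokine receptor interaction, all but *Ptgs2*, and 4 carry that for osteoclast differentiation, *Tnf*, *Il1a*, *Il1b* and *Il1r1*. Of the latter 4, *Il1b* and *Il1r1* were higher in every KO library than in any WT library, and *Tnf* and *Il1a* were not, where 16.9% of all genes tested lay wholly above.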

How the data were processed

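RNA from 3 WT and 3 KO cultures was sequenced with a stranded mRNA kit at the authors' provider. The authors deposited an estimated count per gene and library, not normalized. Among genes detected in a library, 25.14% to 26.59% had an estimated count that was not whole in the deposited table, so values were rounded. The submitters' processing notes name fastp, HISAT2, StringTie and RSEM and the build GRCm39, without versions or roles. The table also holds 2 columns of the authors' means, which were not used. Dividing reads between genes can blur near copies and overlapping genes.

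Libraries were grouped by the genotype in their labels. R 4.3.3 was used with edgeR 4.0.16 (filterByExpr, TMM, glmQLFit with legacy = FALSE, glmQLFTest, two-sided), DESeq2 1.42.0 and limma 3.58.1, with Benjamini-Hochberg adjustment over all genes tested. The fits were tested on simulated data. Calls needed an adjusted p under 0.01 and a fold change above 1.3. The paper's text names no test for these data. Positions, lengths and GC content (of the longest transcript) come from the GENCODE annotation of GRCm38, which is not the build of the counts, and promoters from RefSeq on GRCm38.p6. For the GC correction each library's deviations were fitted on GC content (natural spline, 5 degrees of freedom), and the fit entered edgeR as offsets, for the 13176 of 13428 tested genes with a GC value. The common biological coefficient of variation was 0.142. Floors cover counting error only.

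The 10 members, the 9 pathway lists, the marker lists and the alternatives were chosen with earlier results of these data known. Named genes were all members, lincRNA-EPS, from each pathway list those called by either tool and up to 3 with the lowest unadjusted p, and the 3 genes most correlated with *Il1b* (log2 of CPM plus 0.5). *Casp1*, *Ptges* and *Hpgd* were named after their values were seen. Alternatives were other tests, scalings, filters, limits, a replicate block, the GC correction and each library left out in turn.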

Additional observations from a re-analysis of the deposited data

How the results depend on the processing

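Of the 10 genes none was called at an adjusted p under 0.01 in any alternative except DESeq2's Wald test, which called 1, *Il1rn*. At an adjusted p under 0.05 with the same fold change limit edgeR again called none, DESeq2 called 2, *Il1b* and *Il1rn*, and DESeq2 with the GC correction called *Il1b* (adjusted p = 0.0187). At that limit DESeq2 called 770 of 10456 genes in all, and 658 of 11082 with the GC correction. At the limit of 0.01 DESeq2 called 126 genes in all and 1 pathway gene, *Tnfrsf1b*. With the GC correction edgeR called 3 genes, and with the GC correction and DESeq2 together 330 genes were called, 4 of them pathway genes (*Il1r2*, *Nlrp1b*, *Tnfrsf1b* and *Lif*) and no member. Leaving out each library in turn gave 0 to 2 genes called, 0 without WT replicate 2, WT replicate 3 or KO replicate 2, and 2 without KO replicate 1. The causes were not tested. *Il1b*, *Il1rn*, *Il1r1*, *Il10* and *Tnf* were higher in KO under every alternative run for them. The sign of 4 members turned when single libraries were left out: *Il1a* ranged from -0.43 to 0.19 (log2, 0.05 without WT replicate 2 and 0.19 without KO replicate 2), *Il18* from -0.0215 (without WT replicate 2) to 0.39, *Il1rap* from -0.24 to 0.0064 (without WT replicate 3), and *Ptgs2* from -0.46 to 0.0601 (0.0372 without WT replicate 3 and 0.0601 without KO replicate 2). Of 442 values for 26 named pathway genes, which leave out *Ptges* and *Hpgd*, 3 turned, all of *Mapkapk2*. They were 0.0536 with the GC correction, 0.0440 with the GC correction and replicate block, and 0.0534 with the GC correction and DESeq2.

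The labels number the replicates in both genotypes but do not say that equal numbers mark cultures handled together. Deviations from the group means correlated at -0.215, 0.0766 and 0.166 for numbers 1, 2 and 3, and 1 of 3 KO libraries correlated best with its own number, so the numbers were not taken to pair the cultures. With the replicate block 1 gene and no member was called, and the lowest adjusted p of a member was 0.0780 in edgeR. Depth limits *Il6*, *Il1a* and *Il10* most, which had at most 25 counts in a library.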
